A study of Mus musculus with 33 samples.

Results

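The 10 genes described here carry the transforming growth factor beta (TGF-beta) signal in microglia, the resident macrophages of the brain: the ligand Tgfb1, its activator Nrros, the receptors Tgfbr1 and Tgfbr2, the signal-carrying Smad2, Smad3 and Smad4, and the inhibitors Smad7, Ski and Skil. They were listed by name from the 54146 genes counted, by no rule on their measured values, but with earlier results of these data known. All 10 passed the filter on low counts in every comparison. The study measured RNA in 33 libraries of sorted brain microglia in 10 groups, in order to compare mice lacking the transcription factors IRF8 or BATF3 with WT mice, and mice of an Alzheimer's disease model with and without Irf8. IRF8, an interferon regulatory factor, is needed by some kinds of myeloid cells to develop, and the leucine zipper protein BATF3 works together with it in dendritic cells. All mice are labelled as female C57BL/6.

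The germline Irf8 knockout (IRF8KO) and its WT group were sampled at 3 months with 4 libraries each. At 9 months the groups were WT, IRF8KO, 5xFAD and 5xFAD/IRF8KO, with 3 libraries each. 5xFAD mice carry mutated human transgenes of familial Alzheimer's disease under a neuronal Thy1 promoter, and the 5xFAD group is labelled 5xFAD/WT, that is with Irf8 intact. Batf3KO mice and a WT group of their own were sampled at 3 months with 3 libraries each. In the conditional knockout (IRF8cKO), also at 3 months, 3 libraries labelled IRF8flox (called flox here) stood against 4 labelled Cre. The Cre libraries came from mice with the floxed Irf8 allele, a tamoxifen-inducible Cre under the Cx3cr1 promoter, which is active in microglia and other macrophages, and a Rosa26LSL-EYFP reporter. Both groups are labelled with tamoxifen on 5 days beginning at postnatal day 12, and YFP-positive cells were sorted from mice with Cre, so Irf8 loss, Cre and the YFP gate cannot be told apart. The labels number the samples of a group without tying them to animals or litters, so p-values measure the spread between these libraries. Where the libraries of compared groups are said to overlap or not, this is description. The share of all genes without overlap was not counted in any comparison.

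TGF-beta is secreted as a latent complex and has to be released before it can bind. In microglia the membrane protein NRROS holds latent TGF-beta at the cell surface, where integrins activate it. The active ligand binds the type II receptor TGFBR2, which recruits and phosphorylates the type I receptor TGFBR1, which in turn phosphorylates SMAD2 and SMAD3, and these enter the nucleus with SMAD4. SMAD7 blocks the type I receptor, and SKI and SKIL are co-repressors that bind SMAD complexes. Microglia depend on this signal for their adult identity, including the expression of P2ry12, Tmem119 and Sall1.

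The sequences before the gene starts are shown for the ligand, its activator and both receptors, because Tgfb1, Tgfbr1 and Tgfbr2 were called lower in IRF8KO against WT at 9 months, and Tgfb1 and Nrros in 5xFAD/IRF8KO against 5xFAD. Ski was also called lower in the first of these comparisons and Smad7 in the second, and their sequences are not shown. Each sequence shown is the 250 bases before the RefSeq start on GRCm38.p6, written 5′ to 3′ on the strand of the gene, with the SMAD box CAGAC in capitals where it occurs. The windows lie at chr7:25686752-25687001 on the plus strand (Tgfb1), chr16:32165595-32165844 on the minus strand (Nrros), chr4:47352972-47353221 on the plus strand (Tgfbr1) and chr9:116175364-116175613 on the minus strand (Tgfbr2).
Tgfb1: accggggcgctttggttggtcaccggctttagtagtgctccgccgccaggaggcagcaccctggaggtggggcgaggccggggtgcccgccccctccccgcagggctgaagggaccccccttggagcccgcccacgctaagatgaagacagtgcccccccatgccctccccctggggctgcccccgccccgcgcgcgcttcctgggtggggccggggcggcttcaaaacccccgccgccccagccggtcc
Nrros: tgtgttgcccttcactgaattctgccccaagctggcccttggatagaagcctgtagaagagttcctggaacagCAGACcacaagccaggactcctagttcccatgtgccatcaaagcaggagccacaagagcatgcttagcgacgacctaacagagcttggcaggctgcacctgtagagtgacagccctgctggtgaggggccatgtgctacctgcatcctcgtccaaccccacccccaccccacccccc
Tgfbr1: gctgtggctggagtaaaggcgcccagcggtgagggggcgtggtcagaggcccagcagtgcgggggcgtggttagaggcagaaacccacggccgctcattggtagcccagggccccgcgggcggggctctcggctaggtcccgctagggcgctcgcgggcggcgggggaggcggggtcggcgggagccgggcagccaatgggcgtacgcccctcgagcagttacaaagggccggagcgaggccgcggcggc
Tgfbr2: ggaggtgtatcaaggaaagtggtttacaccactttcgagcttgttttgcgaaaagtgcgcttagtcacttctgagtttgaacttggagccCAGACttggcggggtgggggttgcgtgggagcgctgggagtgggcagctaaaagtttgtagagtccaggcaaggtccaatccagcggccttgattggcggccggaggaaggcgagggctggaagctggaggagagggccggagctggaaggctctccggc

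Each window was searched on both strands, over 250 bases before and 50 bases after the start, for the SMAD box, for the ETS-IRF composite GGAANNGAAA, which IRF8 binds together with the myeloid factor PU.1, and for the interferon-stimulated element GAAANNGAAA, which overlaps the composite at its GAAA. Of the members, 6 had a window (Tgfb1, Nrros, Tgfbr1, Tgfbr2, Smad3 and Ski), and Tgfbr1 had a second start, so that 7 windows were searched. The SMAD box was found before the starts of Nrros and Tgfbr2 and at the second start of Tgfbr1, while 49.6% of all 32851 promoter windows hold it. Neither the composite nor the interferon-stimulated element was found in the 7 windows. Of all windows, 2.72% hold the composite and 3.44% the interferon-stimulated element.

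Counts in genes ranged from 605376 to 18357762 per library, and the 3 WT libraries at 9 months had 5757466, 1673676 and 605376. Irf8 itself was checked first. At 9 months it stood at 638 ± 48.0 CPM (counts scaled to library size, with TMM factors within each fit, mean ± SD) in WT and 77.8 ± 62.1 CPM in IRF8KO, and at 3 months at 245 ± 40.9 CPM in WT libraries against 113 ± 29.6 CPM in IRF8KO. Batf3 stood at 24.6 ± 1.98 CPM in its WT group and 0.488 ± 0.0431 CPM in Batf3KO. Germline Irf8 loss also went with low Batf3. At 9 months, no library of IRF8KO or 5xFAD/IRF8KO had a Batf3 count. The WT and 5xFAD means of that age were 18.8 and 26.7 CPM. At 3 months the Batf3 mean was 0.764 CPM for IRF8KO and 32.4 CPM for its WT group (log2 change -5.33). Cre libraries had more Batf3 than flox (means 37.8 and 3.61 CPM), except replicate 1 at 1.32 CPM, and edgeR did not call it. The part of Batf3 in the results on Irf8 loss was not tested. In the conditional knockout, Irf8 stood at 1096, 1244 and 972 CPM in the 3 flox libraries and 1134, 444, 367 and 521 CPM in the 4 Cre libraries, so the library labelled Cre replicate 1 went against its label. Reads of Y-linked genes went against the label female in 16 libraries, 3 of which held both Y-linked and Xist reads at 10 CPM or more. These libraries were not spread evenly over the groups. At 9 months, Y-linked reads without Xist were found in 3 WT libraries and 1 5xFAD library, while 2 5xFAD libraries held Xist only. Both kinds of reads were found in 1 IRF8KO and 2 5xFAD/IRF8KO libraries of that age. All libraries of the Batf3KO and IRF8cKO experiments held Xist only. The part of sex in the results was not tested.

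The labelled cell type was checked against 8 microglial markers, including P2ry12, Tmem119 and Sall1, and against markers of other cells. In WT and 5xFAD libraries at 9 months the microglial markers together took 4.09% to 4.81% of the counts, and 12 neutrophil markers, such as S100a8 and Ngp, took at most 0.000330%. In IRF8KO libraries at 9 months the microglial markers took 0.267% to 0.571% and the neutrophil markers 6.46% to 9.05%. The 5xFAD/IRF8KO libraries were alike, with 0.421% to 0.616% and 8.18% to 14.5%. All 12 neutrophil markers had counts in each of these 6 libraries, against 1 or 2 of 12 in a WT library. The share of monocyte markers was at most 0.000478% for WT and between 0.789% and 1.65% for IRF8KO at 9 months, and red blood cell markers took 2.41% to 16% of the counts in IRF8KO. Oligodendrocyte markers took 0.0237% to 0.0273% in WT and from 0.733% up to 1.12% in IRF8KO at that age. At 3 months the mixture was already present in the WT group of the IRF8KO experiment, with neutrophil markers at 0.858% to 5.39% and microglial markers at 0.772% to 1.98%, against 7.61% to 16.4% and 0.451% to 0.733% in IRF8KO. The Batf3KO and IRF8cKO experiments held neutrophil markers at 0.0112% or less. The microglial markers are also members of a list of TGF-beta dependent genes described further on. In sorted bulk libraries, fewer microglia and less RNA per microglial cell cannot be told apart, and the part of the marker shift in the results on IRF8KO was not tested.

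**Figure D1:**
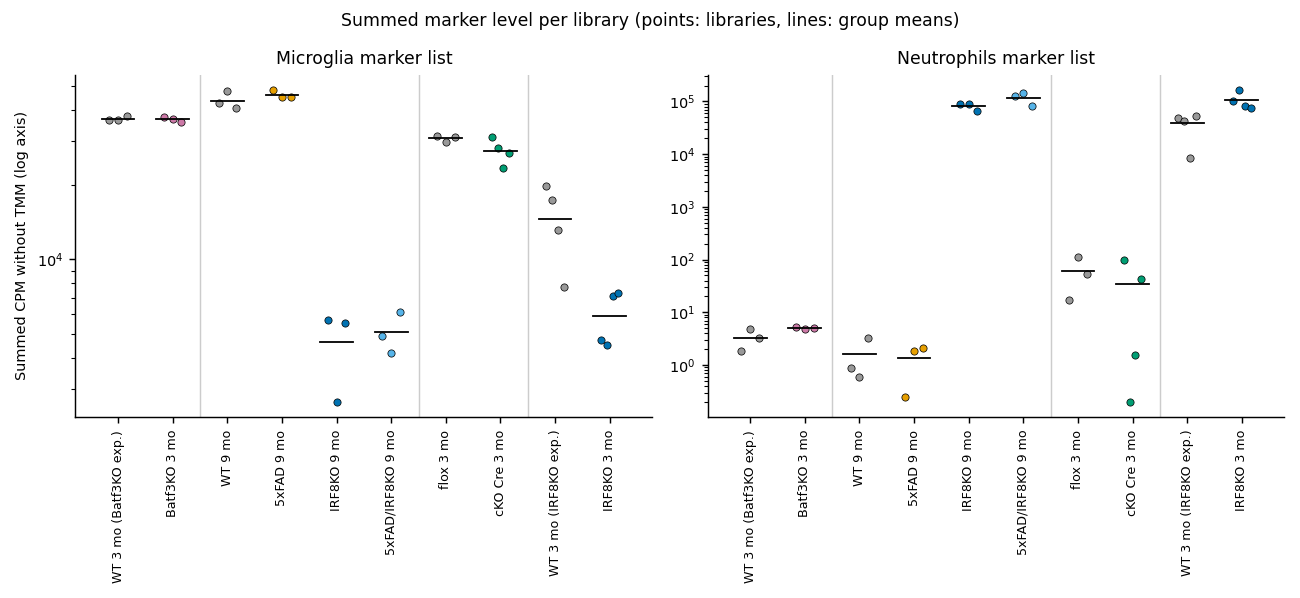
Summed CPM of 8 microglial markers (left) and 12 neutrophil markers (right) in each of the 33 libraries, on log axes without TMM scaling; points are libraries and lines are group means. The 6 Irf8-deficient libraries at 9 months sit lowest for microglial markers together with the 3-month IRF8KO libraries and at 64580 CPM or more for neutrophil markers, while the WT and 5xFAD libraries at 9 months sit at 3.30 CPM or less for neutrophil markers.

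At 9 months, loss of Irf8 went with a much lower level of the ligand and of both receptors. Tgfb1 fell 12.9-fold, Tgfbr2 7.59-fold and Tgfbr1 3.94-fold in IRF8KO against WT, and the co-repressor Ski fell 5.16-fold. No member rose. These 4 of 10 members were called lower at an adjusted p under 0.05 by edgeR, against 8.68% of the 14604 genes tested called lower, 19.6% called higher and 28.3% called in all. The median log2 change of the 10 members was -1.64, and that of all genes tested 0.25.

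Tgfb1 (ENSMUSG00000002603.15, chr7:25687002-25705077, plus strand, GRCm38) stood at 166, 145 and 167 CPM in the 3 WT libraries and at 11.9, 9.50 and 15.6 CPM in the 3 IRF8KO libraries. All IRF8KO libraries lay far below all WT libraries (log2 change -3.68 ± 0.50, adjusted p = 0.000200). Nrros (ENSMUSG00000052384.14, chr16:32142785-32165594, minus strand), whose product presents the latent ligand, stood at 308, 313 and 275 CPM in WT libraries against 202, 289 and 115 CPM in IRF8KO. One IRF8KO library lay within the WT range, and the difference did not pass the test (log2 change -0.56 ± 0.39, adjusted p = 0.313).

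Tgfbr1 (chr4:47353222-47414931, plus strand) stood at 1875, 1440.3 and 1604 CPM in WT libraries against 288, 493 and 468 CPM in IRF8KO, with every IRF8KO library far below the lowest WT library (log2 change -1.98 ± 0.28, adjusted p = 0.000272). Tgfbr2 (chr9:116084293-116175360, minus strand) stood at 627, 336 and 558 CPM in WT libraries against 64.1, 48.3 and 88.1 CPM in IRF8KO, again without overlap (log2 change -2.92 ± 0.38, adjusted p = 0.000149). Both receptor subunits were thus lower in all 3 IRF8KO libraries than in any WT library.

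Among the Smads, none was called. Smad2 stood at 84.7, 78.2 and 80.2 CPM in WT and at 97.0, 16.4 and 50.1 CPM in IRF8KO, where the 3 libraries spread widely around the WT level (log2 change -0.57 ± 0.54, adjusted p = 0.471). Smad3 (chr9:63646767-63757994, minus strand) stood at 87.3, 55.4 and 60.8 CPM in WT libraries against 26.5, 0.153 and 22.4 CPM in IRF8KO. All 3 IRF8KO libraries lay below WT, but replicate 2 was almost without Smad3 reads and the difference did not pass (log2 change -2.05 ± 1.10, adjusted p = 0.184). Smad4, the partner shared by all receptor-activated Smads, stood at 102, 78.2 and 80.2 CPM in WT libraries against 75.0, 68.3 and 76.5 CPM in IRF8KO, a small difference (log2 change -0.25 ± 0.35, adjusted p = 0.646). The inhibitory Smad7, itself a target of the pathway, stood at 34.4, 15.5 and 31.6 CPM in WT libraries against 3.02, 7.81 and 22.3 CPM in IRF8KO, with overlap (log2 change -1.30 ± 0.96, adjusted p = 0.345).

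Of the co-repressors, Ski was called and Skil was not. Ski (chr4:155154075-155222592, minus strand) stood at 188, 111 and 151 CPM in WT libraries against 46.0, 3.98 and 37.0 CPM in IRF8KO (log2 change -2.37 ± 0.65, adjusted p = 0.0168). Its groups did not overlap. Leaving out WT replicate 1 ended the call (adjusted p = 0.0545), as did fitting only these groups (0.0661). Skil (chr3:31095058-31122577, plus strand) stood at 193, 129 and 164 CPM in WT libraries against 38.8, 277 and 55.4 CPM in IRF8KO, where replicate 2 lay above every WT library and the other 2 below (log2 change -0.39 ± 0.59, adjusted p = 0.674). Without that replicate, Skil was called lower (log2 change -1.90, adjusted p = 0.00408). In the same replicate Irf8 was lowest at 16.7 CPM, Smad3 at 0.153 CPM and Ski at 3.98 CPM.

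**Figure D2:**
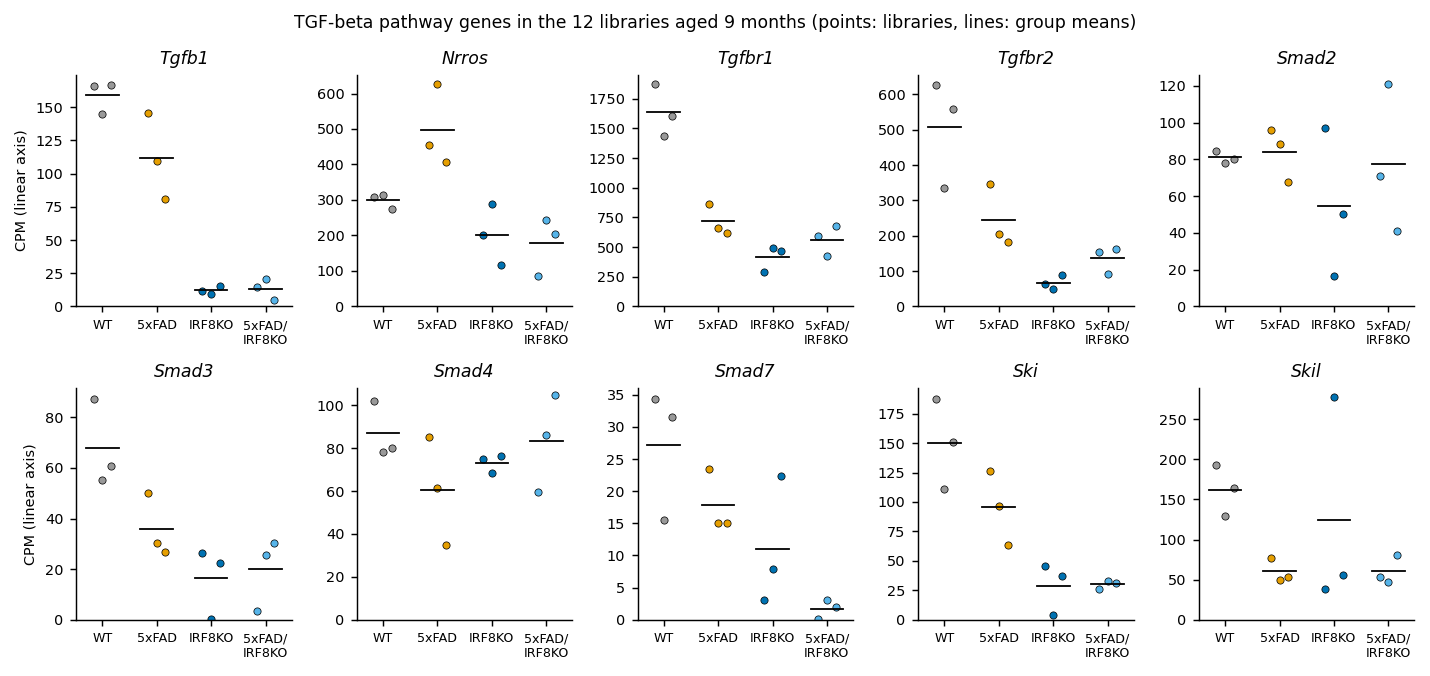
CPM of the 10 genes (linear axes from 0) in the 12 libraries aged 9 months, WT, 5xFAD, IRF8KO and 5xFAD/IRF8KO with 3 each; points are libraries and lines are group means. Tgfb1 lies between 80.7 and 167 CPM in the 6 libraries with Irf8 and between 4.82 and 20.7 CPM in the 6 without it, Tgfbr1 is highest in WT, and Skil has 1 IRF8KO library at 277 CPM.

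In the fit of all 4 groups, the 5xFAD transgenes alone went with fewer called members. In 5xFAD against WT, Tgfbr1 was the 1 member called, 2.29-fold lower, against 0.178% of genes called lower, 1.81% called higher and 1.99% called in all. It stood at 866, 661 and 621 CPM in the 3 5xFAD libraries, all below the WT libraries given above (log2 change -1.20 ± 0.27, adjusted p = 0.0448). This call lay near the threshold and was lost when any 1 of the 6 libraries was left out (adjusted p = 0.0815 to 0.259). When only the 5xFAD and WT libraries were fitted, 8 of the 10 members were called, 7 of them lower and Nrros higher, against 43.5% of the genes tested in that fit, 22.7% lower and 20.8% higher. With only the IRF8KO and WT libraries at 9 months fitted, 3 members were called, beside 3731 of the 12781 genes tested. Which of these comparisons called more members thus depended on the fit.

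Nrros was the 1 member with every 5xFAD library above every WT library, at 455, 626 and 406 CPM (log2 change 0.73 ± 0.39, adjusted p = 0.576). How many of all genes were separated in this way was not counted. Skil stood at 76.9, 50.1 and 53.3 CPM and Smad3 at 50, 30.5 and 26.9 CPM in 5xFAD, both below WT in every library. Neither was called in the fit of all 4 groups (log2 change -1.43 ± 0.60, adjusted p = 0.373 for Skil). The edgeR fit of only 5xFAD and WT gave adjusted p = 0.00970 for Nrros, 3.71e-05 for Skil, 0.00146 for Smad3 and 0.000729 for Tgfbr2. Tgfbr2 stood at 346, 206 and 183 CPM and overlapped WT (log2 change -1.05 ± 0.36, adjusted p = 0.206), and Tgfb1 stood at 146, 109 and 80.7 CPM (log2 change -0.51 ± 0.45, adjusted p = 0.879). The other members, Smad2, Smad4, Smad7 and Ski, had log2 changes between -0.64 and 0.052. The median of the 10 was -0.62, beside 0.0018 for all genes tested. Microglial markers took 4.50% to 4.81% of the counts in 5xFAD and 4.09% to 4.75% in WT.

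In 5xFAD mice without Irf8, the ligand and its activator were lower together. Against 5xFAD, Tgfb1 fell 8.40-fold, Nrros 2.78-fold and Smad7 10.3-fold, 3 of 10 members called lower beside 9.72% of genes called lower, 18.0% called higher and 27.8% called in all. Tgfb1 stood at 14.5, 20.7 and 4.82 CPM in 5xFAD/IRF8KO beside 9.50 to 15.6 CPM in IRF8KO alone (log2 change -3.07 ± 0.48, adjusted p = 0.000621). Nrros stood at 86.2, 244 and 204 CPM, below all 5xFAD libraries (log2 change -1.48 ± 0.40, adjusted p = 0.0158), a call lost without 5xFAD replicate 2 (adjusted p = 0.0735). Smad7 stood at 0.171, 3.06 and 1.95 CPM in 5xFAD/IRF8KO and 23.5, 15.1 and 15.0 CPM in 5xFAD (log2 change -3.36 ± 1.03, adjusted p = 0.0294). The Smad7 call was lost without each of the 3 5xFAD libraries in turn (adjusted p = 0.0555 to 0.0906), without 5xFAD/IRF8KO replicate 3 (0.0581) and when only these groups were fitted (0.0546).

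The receptors did not pass in this comparison. Tgfbr1 stood at 590.5, 420.4 and 679 CPM in 5xFAD/IRF8KO, overlapping 5xFAD (log2 change -0.35 ± 0.27, adjusted p = 0.374). Tgfbr2 stood at 154, 91.7 and 162 CPM, below every 5xFAD library (log2 change -0.85 ± 0.35, adjusted p = 0.0932). Ski stood at 26.4, 32.5 and 30.8 CPM against 126, 96.8 and 63.7 CPM in 5xFAD, also without overlap (log2 change -1.68 ± 0.63, adjusted p = 0.0653). Smad2, Smad3, Smad4 and Skil had means of 77.7 ± 40.3, 19.9 ± 14.5, 83.4 ± 22.7 and 60.1 ± 17.6 CPM, each overlapping 5xFAD.

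Where Irf8 was already missing, adding 5xFAD called no member. In 5xFAD/IRF8KO against IRF8KO, edgeR called 0.164% of genes (24), 0.123% higher and 0.0411% lower. Tgfbr2 alone lay higher in all 3 5xFAD/IRF8KO libraries than in any IRF8KO library (log2 change 1.03 ± 0.36, adjusted p = 0.240, unadjusted p = 0.0134). How many of all genes were separated in this way was not counted. Besides Smad7 (log2 change -2.67 ± 1.00, adjusted p = 0.276), Tgfbr2 was the 1 member with an unadjusted p under 0.05. Of all 14604 genes tested, 1853 had an unadjusted p under 0.05 in this comparison. DESeq2 called 1 member here, Smad7, beside 714 genes. For the interaction, the difference between the Irf8 effect with and without 5xFAD, edgeR called 0 of 10 members and 0.438% of genes. The shares of genes called higher and lower were 0.192% and 0.247%. An unadjusted p under 0.05 was found for 2 members and 2146 of the 14604 genes. Of the members, the receptors had the smallest adjusted p-values. Tgfbr1 had an interaction of 1.63 ± 0.38 (adjusted p = 0.0787) and Tgfbr2 of 2.07 ± 0.50 (adjusted p = 0.0855). DESeq2 called both (adjusted p = 0.00250 and 0.00339), beside 6.19% of genes called and 2.34% called higher. So did edgeR without the filter on low counts (adjusted p = 0.0229 and 0.0161), beside 0.811% and 0.477%. The 4 comparisons at 9 months share libraries, so the same WT and IRF8KO values enter more than 1 of them.

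**Figure D3:**
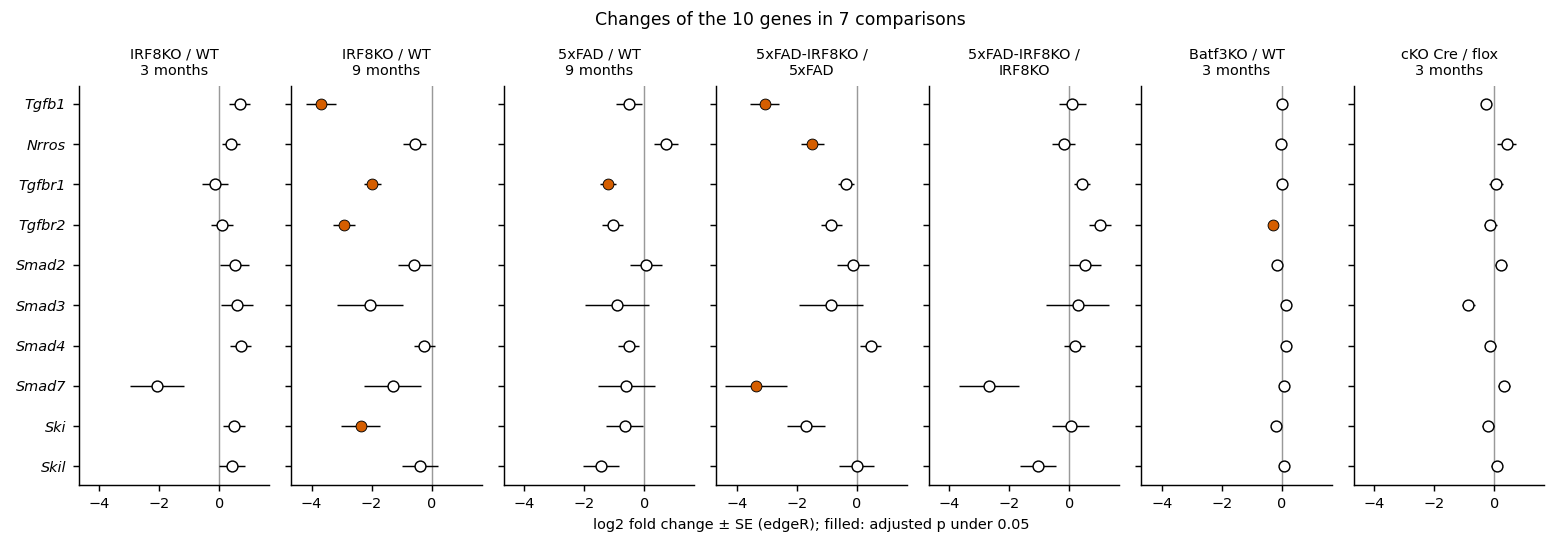
Log2 fold change ± SE of each of the 10 genes in 7 comparisons, with filled points for an adjusted p under 0.05 by edgeR and open points for the rest. Filled points stand at Tgfb1, Tgfbr1, Tgfbr2 and Ski for IRF8KO at 9 months, at Tgfbr1 for 5xFAD, at Tgfb1, Nrros and Smad7 for 5xFAD/IRF8KO against 5xFAD, and at Tgfbr2 for Batf3KO, and none stands in the panels of IRF8KO at 3 months, of 5xFAD/IRF8KO against IRF8KO or of the conditional knockout.

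At 3 months, no member passed the test in IRF8KO against WT, beside 7.39% of 13121 genes called, 4.15% higher and 3.24% lower. Of the members, 1 (Smad7) had an unadjusted p under 0.05, beside 3043 of the 13121 genes. DESeq2 called 0 members and 2049 genes. Tgfb1 stood at 27.8, 17.9, 29.5 and 21.4 CPM in the 4 WT libraries and at 40.6, 42.0, 40.7 and 32.5 CPM in the 4 IRF8KO libraries, so every IRF8KO library lay above every WT library (log2 change 0.69 ± 0.35, adjusted p = 0.258). Smad4 did the same, at 18.7, 24.6, 36.8 and 40.9 CPM in WT libraries against 58.3, 46.7, 47.8 and 48.1 CPM in IRF8KO (log2 change 0.72 ± 0.35, adjusted p = 0.242). The share of all genes separated like this was not counted. The member nearest to the threshold was Smad7, at 4.55, 1.51, 11.8 and 12.7 CPM in WT libraries against 1.72, 1.62, 1.16 and 2.77 CPM in IRF8KO (log2 change -2.07 ± 0.91, adjusted p = 0.192). The WT libraries of Smad7 were split, and replicate 2 lay within the IRF8KO range.

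The receptors and Nrros overlapped between the groups at 3 months. Tgfbr1 stood at 226, 231, 290.3 and 752 CPM in WT, where replicate 4 stood apart, and at 407, 194, 368 and 408 CPM in IRF8KO (log2 change -0.12 ± 0.43, adjusted p = 0.898). Tgfbr2 stood at 52.6, 54.0, 104 and 136 CPM in WT libraries against 99.8, 73.0, 108 and 92.3 CPM in IRF8KO (log2 change 0.10 ± 0.36, adjusted p = 0.897). Nrros stood at 142, 145, 122 and 82.6 CPM in WT libraries against 147, 189.8, 143 and 167 CPM in IRF8KO (log2 change 0.40 ± 0.29, adjusted p = 0.452). Group means of Smad2, Smad3, Ski and Skil were 35.6 ± 24.2, 14.7 ± 6.93, 35.1 ± 12.4 and 36.2 ± 21.4 CPM in WT. In IRF8KO they were 51.0 ± 8.07, 22.2 ± 11.2, 49.9 ± 10.2 and 48.4 ± 15.2 CPM, and all 4 overlapped. The WT levels in this experiment were far below those at 9 months, in libraries that also held more neutrophil and fewer microglial markers than the 9-month WT libraries.

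The Irf8 effect itself differed between the ages for 4 members when each was set against the WT group of its own age. The 9-month effect was lower than the 3-month effect for Tgfb1 by a log2 difference of -4.30 ± 0.49 (adjusted p = 1.48e-05), for Tgfbr2 of -2.94 ± 0.54 (adjusted p = 0.000814), for Ski of -2.79 ± 0.79 (adjusted p = 0.0167) and for Tgfbr1 of -1.77 ± 0.60 (adjusted p = 0.0398). Of all 15512 genes tested, 24.0% were called, 18.0% higher and 5.92% lower. The Tgfbr1 call was lost without 11 of the 14 libraries, each left out in turn, and with DESeq2-type size factors (adjusted p = 0.0628), which moved the median of all genes from 0.40 to 0.57. The Ski call was lost without WT replicate 1 of the 9-month group. Age, experiment and the cell mixture of the WT libraries cannot be told apart here: WT Tgfb1 was 24.2 ± 5.45 CPM at 3 months and 159 ± 12.5 CPM at 9 months, while IRF8KO Tgfb1 was 38.9 ± 4.32 and 12.4 ± 3.09 CPM.

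Loss of Batf3 left 9 of the 10 members uncalled. Tgfbr2 was 1.23-fold lower, at 546, 513 and 531 CPM in WT libraries against 420.1, 432 and 435 CPM in Batf3KO, without overlap (log2 change -0.30 ± 0.068, adjusted p = 0.0253). In this experiment 3.83% of 13128 genes were called, 1.41% higher and 2.42% lower. The Tgfbr2 call was lost in 5 of the 6 fits that each left out 1 library (adjusted p = 0.0527 to 0.136) and kept without WT replicate 3 (0.0308). Ski lay lower in every Batf3KO library, at 256, 227 and 249 CPM against 294, 261 and 281 CPM (log2 change -0.19 ± 0.081, adjusted p = 0.227), and Smad4 higher, at 70.7, 72 and 72.3 CPM against 57.5, 69.9 and 69.5 CPM (log2 change 0.13 ± 0.10, adjusted p = 0.561). Tgfb1 stood at 310.0, 261 and 259.8 CPM in WT libraries against 280.1, 269.6 and 285 CPM in Batf3KO (log2 change 0.0071 ± 0.085, adjusted p = 0.980). Nrros was 644 ± 51.8 against 631 ± 97.2 CPM and Tgfbr1 1242 ± 169 against 1242 ± 62.4 CPM (WT, then Batf3KO). The remaining members, Smad2, Smad3, Smad7 and Skil, overlapped with log2 changes between -0.15 and 0.13.

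In the conditional knockout, Irf8 itself was lower in Cre than in flox but was not called by edgeR (log2 change -0.84 ± 0.32, adjusted p = 0.421). Its loss was thus partial over the Cre libraries. There edgeR called no member and 0 of 15512 genes, with 1407 genes at an unadjusted p under 0.05 and 164 called by DESeq2. Smad3 stood at 66.5, 74.8 and 48.2 CPM in the 3 flox libraries and 41.8, 40.5, 28.0 and 28.7 CPM in the 4 Cre libraries, the 1 member without overlap, 1.82-fold lower in Cre (log2 change -0.86 ± 0.21, unadjusted p = 0.00121, adjusted p = 0.193). The share of all genes without overlap was not counted. Without Cre replicate 1, whose Irf8 was at the flox level, Smad3 was called (log2 change -0.97, adjusted p = 0.00410) beside 6.24% of genes called and 2.50% called lower. It was called by DESeq2 as well (adjusted p = 0.0284, with 1.06% of genes called and 0.264% called lower) and by edgeR without the filter on low counts (adjusted p = 0.00226, with 1.99% and 0.875%).

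Tgfb1 stood at 55.5, 54.9 and 48.0 CPM in flox and 53.4, 43.8, 37.1 and 39.0 CPM in Cre, with overlap (log2 change -0.29 ± 0.17, adjusted p = 0.716). The receptors were at 395, 492 and 355 CPM in flox and 291, 579, 440.2 and 412 CPM in Cre for Tgfbr1, and at 105, 129 and 73.2 and 78.8, 120.0, 89.1 and 82.2 CPM for Tgfbr2, so neither pair of groups was separated. Nrros stood at 142, 243 and 135 CPM in flox and 177, 292, 126 and 335 CPM in Cre (log2 change 0.42 ± 0.32, adjusted p = 0.815). Smad7 was 16.7 ± 1.83 against 20.9 ± 3.65 CPM and Ski 98.9 ± 18.2 against 85.1 ± 16.3 CPM (flox, then Cre). Neutrophil markers were at most 112 CPM in this experiment. Summed border macrophage markers, such as Mrc1, stood at 111 to 157 CPM in flox (median 121) and 6.57 to 204 CPM in Cre (median 10.5). The part of this difference in the results was not tested. Against the germline knockout at 3 months, no member's effect differed at an adjusted p under 0.05 (7.04% of genes did, 4.37% higher and 2.68% lower). An unadjusted p under 0.05 was found for 3 members and 4018 of the 17361 genes tested. DESeq2 called Tgfb1 and Smad7, beside 2162 of the 17361 genes. Nearest to the threshold by edgeR were Smad7, with a difference of 2.52 ± 0.81 (adjusted p = 0.0697), Smad3 with -1.37 ± 0.54 (0.133) and Tgfb1 with -0.89 ± 0.37 (0.152).

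**Figure D4:**
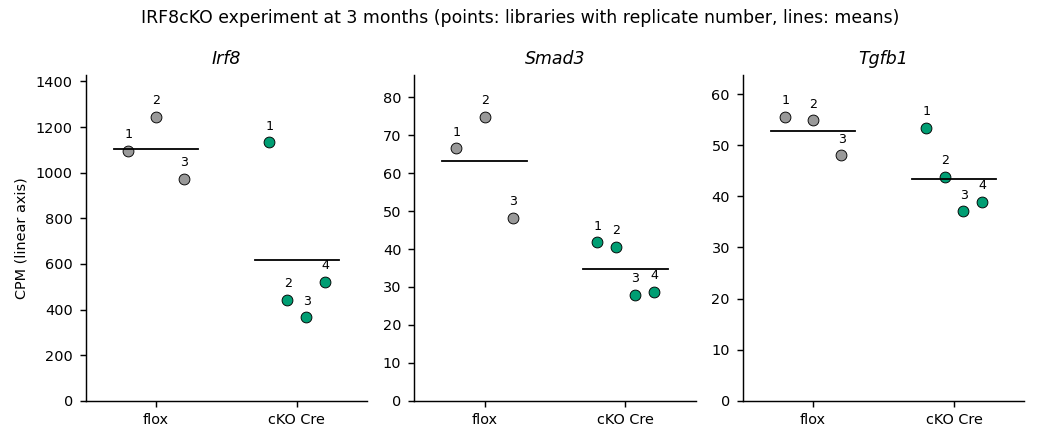
CPM (linear axes from 0) of Irf8, Smad3 and Tgfb1 in the 3 flox and 4 Cre libraries of the conditional knockout at 3 months, with the replicate number above each point and lines at the group means. Cre replicate 1 sits at 1134 CPM of Irf8 among the flox libraries, while its Smad3, at 41.8 CPM, sits below all of them.

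The wider pathway was read from lists of genes beside the 10. Mean levels are given as the first-named group against the second, with the log2 change in parentheses. Among 20 microglial genes that are known to need TGF-beta, 18 were called lower and 0 higher in IRF8KO at 9 months (median log2 change -2.89, all genes 0.25). Of all genes tested in that comparison, 8.68% were called lower and 19.6% higher. P2ry12, a purine receptor of resting microglia, was 254 against 8424 CPM in IRF8KO and WT (log2 change -5.05, adjusted p = 4.07e-06). Sall1, a transcription factor of microglial identity, was 6.54 against 341 CPM (-5.69, adjusted p = 0.0109), and the purine receptor P2ry13 was 165 against 3208 CPM (-4.28, adjusted p = 1.51e-05). The list was lower as well in 5xFAD/IRF8KO against 5xFAD, with 19 of 20 called lower (median -3.23), and at 3 months, with 11 of 20 (median -1.64). The shares of all genes called lower there were 9.72% and 3.24%. Since this list contains all 8 microglial markers, its fall and the marker shift described above are in part the same measurement. In 5xFAD against WT it had 2 genes called higher, C1qa (1.34) and Fcrls (1.02), and none lower, beside 1.81% and 0.178% of all genes. Batf3KO had 2 called lower, Gas6, a ligand of the receptor Axl (-0.44), and P2ry13 (-0.37), beside 2.42% of all genes.

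Of 18 genes known to rise in microglia without TGF-beta, 12 were called higher and 3 lower in IRF8KO at 9 months (median 3.95). The shares of all genes were 19.6% and 8.68%. Cybb, an oxidase subunit of phagocytes, was 1207 against 4.78 CPM (8.25, adjusted p = 5.59e-06), and Lgals3, which encodes galectin-3, was 402 against 2.49 CPM (7.31, adjusted p = 1.15e-05). Neutrophils and monocytes also express Cybb, and Mrc1 and Ms4a7 on this list are also border macrophage markers. The genes called lower were H2-Aa, H2-Ab1 and Cd74 of antigen presentation, with H2-Ab1 at 1.07 against 43.9 CPM and Cd74 at 4.07 against 97.6 CPM. At 3 months 5 of 17 were called higher, led by Mrc1 (4.47), and Lpl was called lower (-2.25), beside 4.15% and 3.24% of all genes. In 5xFAD, 6 of 18 were called higher and none lower, beside 1.81% and 0.178% of all genes. Cst7 stood at 560.1 against 11 CPM (5.73, adjusted p = 0.000532), Apoe at 6329.9 against 399 CPM (3.98) and Cd63 at 1059 against 229 CPM (2.20). The interaction called 3 of the 18 lower, Cst7 (-5.35), Apoe (-3.80) and Cd63 (-2.15), beside 0.247% of all genes. In Batf3KO 3 were higher, Clec7a (2.79), Axl (0.87) and Lyz2 (0.42), and 3 lower, Itgax (-1.72), Mrc1 (-1.17) and Lpl (-1.08). There 1.41% of all genes were called higher and 2.42% lower.

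Genes that activate latent TGF-beta moved in both directions. In IRF8KO at 9 months, 3 of 11 tested were called higher and 3 lower, where 19.6% of all genes tested were called higher and 8.68% lower. The integrin subunit Itgb5 was 463 against 2331 CPM (-2.33, adjusted p = 0.000880) and Itgb1 was 143 against 338 CPM (-1.24), while the protease gene Mmp2 had 0 counts in IRF8KO and 84.4 CPM in WT. Thbs1, a secreted protein that can release the latent ligand, was 124 against 5.36 CPM (4.44, adjusted p = 0.00159). Mmp9, a protease gene that neutrophils express strongly, stood at 809.7 CPM in IRF8KO and had 1 count over the WT group, and Itgb8 stood at 20.8 CPM, also with 1 count in WT. In 5xFAD/IRF8KO against 5xFAD 3 were called higher, including Thbs1 at 484 against 1.31 CPM, and Itgb5 was lower at 522 against 2024 CPM (-1.95). There 18.0% of all genes were called higher and 9.72% lower. At 3 months 2 of 12 were higher, Thbs1 at 209 against 2.70 CPM and Mmp9 (2.97), and in Batf3KO the 1 gene of 9 called was Mmp2, at 28.7 against 82.1 CPM (-1.52, adjusted p = 3.05e-06). Of all genes, 4.15% were called higher in IRF8KO at 3 months and 2.42% lower in Batf3KO.

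The counts among the other receptors, ligands, Smads and their partners were small, and 28.3% of all genes tested were called in IRF8KO against WT at 9 months. There 1 of 11 other receptors was called, the co-receptor Eng, with 0 counts in IRF8KO and 80.1 CPM in WT, and 1 of 3 other Smads, the inhibitory Smad6, with 0 counts and 6.39 CPM. One of 3 other ligands was called higher, the activin subunit Inhba, at 62.4 CPM against 1 count over the WT group. Of 18 partners and modifiers of Smads, 2 were called higher, the phosphatase Ppm1a (1.66) and the deubiquitinase Usp15 (1.5), and 2 lower, the ubiquitin ligase Smurf1 (-4.63) and the inhibitor Pmepa1 (-1.0), a share of the list near that of all genes. In 5xFAD/IRF8KO against 5xFAD, where 27.8% of all genes were called, 3 of the 18 partners were higher, Usp9x (2.77), Usp15 (2.15) and Ncor1 (1.66), and 2 lower, Ldlrad4 (-2.13) and Tgif1 (-1.39). There Eng was 1.64 against 52.5 CPM and Smad1 was 10.7 against 70.8 CPM, both called lower.

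Of 15 general Smad target genes tested at 9 months, 5 were called higher and 3 lower in IRF8KO, beside the 19.6% and 8.68% of all genes. Id2, an inhibitor of helix-loop-helix factors, was 269 against 53.6 CPM (2.31, adjusted p = 0.000317), and Id3 stood at 39.6 CPM against 2 counts over the WT group. The AP-1 genes Jun, at 30.7 against 449.7 CPM (-3.87), and Junb, at 87.0 against 433 CPM (-2.32), were lower. Jun was also the 1 target called in 5xFAD against WT, at 50.2 against 449.7 CPM (-3.17, adjusted p = 0.0162), and it was called in the interaction (4.46). Of all genes, 0.178% were called lower in 5xFAD and 0.192% higher in the interaction. At 3 months, with 4.15% of all genes called higher, 2 of 12 were called higher, the matrix protein gene Tgfbi at 223 against 26.8 CPM (3.05) and Bhlhe40 at 59.1 against 9.00 CPM (2.67). In the conditional knockout edgeR called 0 of 15512 genes, so no list could hold a called gene there. The part of neutrophil and monocyte RNA in these calls was not tested.

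Per length of the summed exons, Tgfbr1 was the most abundant member in WT microglia at 9 months, at 251 ± 33.6 RPKM (reads per kilobase of exon, scaled to library size, n = 3), followed by Nrros at 71.5 ± 4.97, Tgfbr2 at 61.9 ± 18.6 and Tgfb1 at 31.6 ± 2.48 RPKM. The co-repressors Ski and Skil stood at 26.9 ± 6.93 and 16.7 ± 3.27 RPKM, and the Smads between 6.01 ± 2.25 RPKM (Smad7) and 23.4 ± 3.59 RPKM (Smad4). In the WT group of the Batf3KO experiment the first 4 places were the same, with Tgfbr1 at 190.0 ± 25.8, Nrros at 154 ± 12.4, Tgfbr2 at 64.7 ± 2.01 and Tgfb1 at 54.9 ± 5.68 RPKM. The order differed in the other control groups. In WT of the 3-month IRF8KO experiment, Tgfb1 at 4.79 ± 1.08 RPKM stood below Smad4 at 8.15 ± 2.79 and Ski at 6.31 ± 2.23 RPKM (n = 4). In flox, Ski at 17.8 ± 3.27 RPKM stood above Tgfbr2 at 12.5 ± 3.39 RPKM, and Smad3 at 11.4 ± 2.46 above Tgfb1 at 10.5 ± 0.822 RPKM (n = 3). The ranges of 1 SD around the means overlapped in each of these pairs. Tgfbr1 had the highest mean of the 10 per length in all 4 control groups, at 57.4 ± 38.7 RPKM in WT of the 3-month IRF8KO experiment and 63.4 ± 10.8 RPKM in flox, and Nrros the next. Smad7 had the lowest mean in the 3 WT groups, but in flox, at 3.69 ± 0.404 RPKM, it stood above Smad2 (2.86 ± 0.755) and Skil (2.90 ± 0.497).

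Levels over all 10 groups, scaled over the 33 libraries together, are a description, since the groups come from different experiments. Tgfb1 was highest in the 2 groups of the Batf3KO experiment, at 331 CPM in WT libraries against 310.4 CPM in Batf3KO, whose libraries overlapped. It was 149 CPM in WT libraries against 104 CPM in 5xFAD at 9 months, which overlapped, then 48.9 CPM in flox, 42.1 in IRF8KO at 3 months and 40.1 in Cre. WT of the 3-month IRF8KO experiment stood at 25.8 CPM, and 5xFAD/IRF8KO and IRF8KO at 9 months stood lowest, at 12.3 and 11.1 CPM, and overlapped. Of the 9 pairs of neighbours in this order, 5 overlapped. The order of Nrros ran from 768 CPM in WT of the Batf3KO experiment to 131 CPM in WT of the 3-month IRF8KO experiment, and 5xFAD at 458 CPM stood apart from WT at 9 months, at 279.9 CPM.

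Tgfbr1 stood at 1539 CPM in WT at 9 months, 1474 in WT and 1384 in Batf3KO of the Batf3KO experiment, all overlapping, and at 663 CPM or less in the other 7 groups, of which IRF8KO at 3 months was lowest with 373 CPM. Tgfbr2 ran from 631 CPM in WT of the Batf3KO experiment to 60.2 CPM in IRF8KO at 9 months. Neighbours overlapped in 8 of 9 pairs for Tgfbr1 and 7 of 9 for Tgfbr2 and Nrros. In the orders of Smad2, Smad7 and Skil all 9 pairs overlapped, in those of Smad3 and Smad4 8 and in that of Ski 7. Ski was highest in WT and Batf3KO of that experiment, at 332 and 272 CPM, both apart from the next group.

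**Figure D5:**
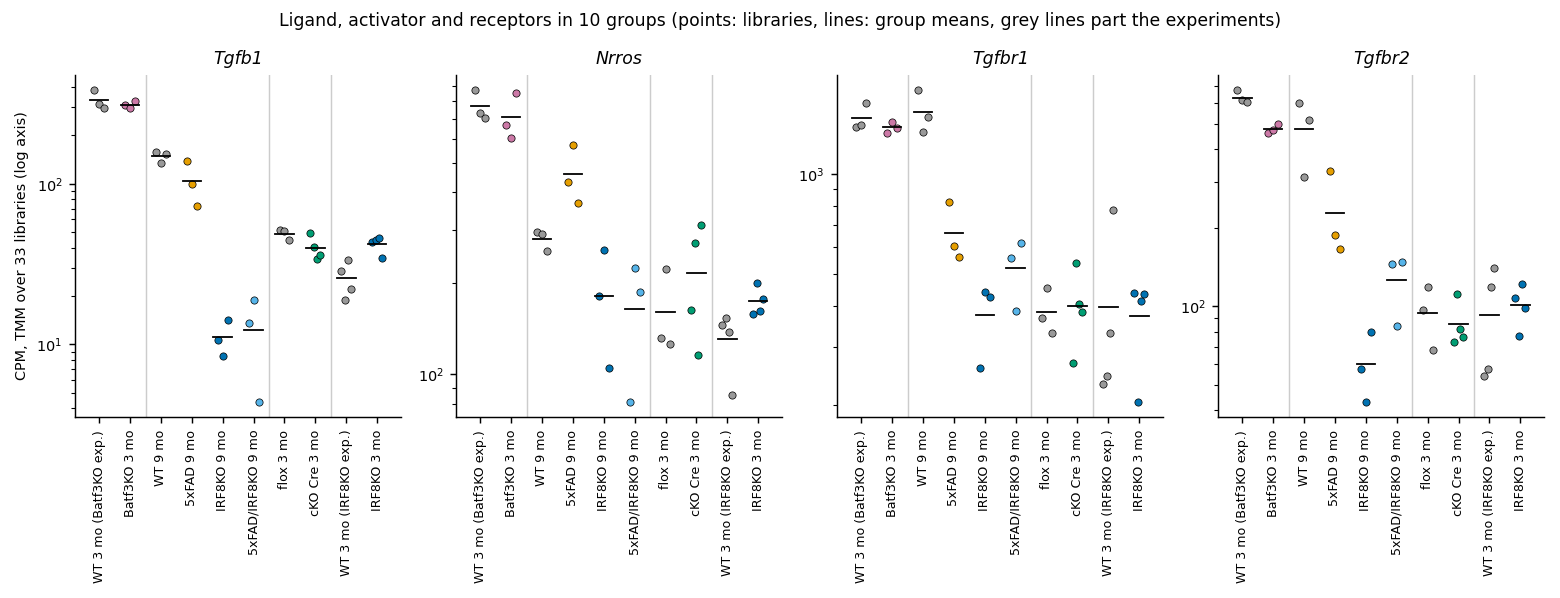
Levels of Tgfb1, Nrros, Tgfbr1 and Tgfbr2 in the 10 groups on log axes, in CPM scaled over all 33 libraries; points are libraries, lines are group means and grey lines part the experiments. Tgfb1 spans from 11.1 CPM (IRF8KO at 9 months) to 331 CPM (WT of the Batf3KO experiment), and the grey WT points of different experiments do not share 1 level.

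The genes with the most similar pattern over the 10 groups were found by the smallest root mean square difference of centred group means of log2(CPM + 1) among 11020 other genes. For Tgfb1 they were Eme2 (0.303), Plcg1 (0.304) and Map1s (0.311), where Tgfb1 itself spread by 1.65 around its mean. For Nrros they were Trpv2 (0.228), Gorasp1 (0.232) and Det1 (0.234), for Tgfbr1 Cyfip1 (0.194), Lyn (0.276) and Tbc1d5 (0.279), and for Tgfbr2 Golm1 (0.203), Pld1 (0.217) and Gab1 (0.234). These groups differ in experiment, depth and cell mixture, which the patterns share.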

How the data were processed

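The authors deposited whole-number counts of reads per gene for 33 libraries of sorted microglia, without normalization; the chemistry has no molecular identifiers, so duplicate reads of a molecule each count. Per the labels' protocols, RNA was amplified with SMART-Seq v4 and sequenced from both ends after Nextera XT tagmentation. The submitters' processing notes name STAR 2.5.2b, Picard 2.17.11, featureCounts and the build mm10. Counts that ignore strand were taken, because 49.5% to 50.1% of reads fell on the forward strand, and overlapping genes are therefore uncertain. The summary lines of reads in no gene (21.4% to 52.7% of reads) stayed out of library sizes. Symbols, coordinates and exon lengths came from GENCODE M21 (GRCm38), which held 52480 of 54146 identifiers in the same version. No 2 of the libraries held identical counts.

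Samples were grouped by their labels. Each comparison was tested in R 4.3.3 by edgeR 4.0.16 (quasi-likelihood F test, default filter on low counts, TMM scaling), with Benjamini-Hochberg adjustment over all genes tested; genes at an adjusted p under 0.05 were called. The 4 groups aged 9 months were fitted together, other comparisons on their own groups. Standard errors were derived from the F statistic. There were 10 comparisons. The script was tested on simulated counts. Alternatives were DESeq2 1.42.0, its type of size factors, no filter, all 33 libraries, a replicate block, only the groups compared, and leaving out each library in turn.

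The members, lists and tests were chosen with earlier results of these data known. Named beside the members and the targeted genes were, per pathway list, comparison and direction, up to 4 called genes with the largest change and a group mean of 5 CPM or more, and for 4 members the 3 genes of nearest pattern; not all of these are printed. Promoter windows came from RefSeq on GRCm38.p6, and 6 of the members had one that was used.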

Additional observations from a re-analysis of the deposited data

Results flagged for a closer look

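The values of 1 gene in 1 group of 4 to 10 libraries were searched for 1 library far from the rest by Dixon's ratio. Of the 36 such sets of values, 3 had one, where chance gives about 1 in 20. Sets from the same group share libraries, and groups of 3 libraries were not searched. In IRF8KO at 3 months, Tgfb1 was lowest in replicate 4, at 32.5 CPM, while the other libraries lay between 40.6 and 42.0 CPM. In WT of the same experiment, Tgfbr1 was highest in replicate 4, at 752 CPM, while the others lay from 226 up to 290.3 CPM. In IRF8KO at 3 months, Smad4 was highest in replicate 1, at 58.3 CPM, while the others lay between 46.7 and 48.1 CPM.

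The effect of Irf8 loss differed between 9 and 3 months, by the edgeR test of the difference itself, for Tgfb1 (log2 difference -4.30), Tgfbr1 (-1.77), Tgfbr2 (-2.94) and Ski (-2.79). Each effect was taken against the WT group of its own age, and age and experiment cannot be told apart.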

How the results depend on the processing

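The 10 members kept their direction and their side of the threshold in 490 of 540 member results under another setting with all libraries; 29 became called, 7 lost the call and 14 changed sign. With 1 library left out, 777 of 860 stayed, 29 lost the call, 6 became called and 48 changed sign.

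Counts of called genes moved by over 1.5 times as follows. For IRF8KO at 3 months they were 2049 with DESeq2, 1655 without the filter and 3300 with all 33 libraries in the fit (2 members called); at 9 months 6836 with all 33 libraries. For 5xFAD they were 900 with DESeq2 (2 members), 163 without the filter, 806 with all 33 libraries (0 members), 105 with the replicate block (0 members) and 4546 with only the groups compared (8 members). For 5xFAD/IRF8KO against 5xFAD all 33 libraries gave 6783. Against IRF8KO, DESeq2 gave 714 (1 member), no filter 320, all 33 libraries 1452 (1 member), and the replicate block and only the groups compared 0 each. The interaction had 904 with DESeq2 (2 members), 238 without the filter (2 members), 1082 with all 33 libraries (1 member) and 9 with the replicate block. Batf3KO had 842 with DESeq2, 998 without the filter, 10 with all 33 libraries (0 members) and 216 with the replicate block (0 members). The conditional knockout had 164 with DESeq2 (1 member), 618 without the filter (1 member) and 3 with all 33 libraries. The difference between ages had 6342 with all 33 libraries, and that between conditional and germline knockout 2162 with DESeq2 (2 members) and 293 with the replicate block. Between the groups that were highest and lowest with TMM, the fold moved to 4.18 for Nrros with DESeq2-type size factors, and to 5.56 for Tgfbr1 and 4.54 for Smad4 without TMM.

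Signs changed for members that were not called: Tgfbr1 at 3 months (0.015 with the replicate block), Smad2 in 5xFAD (-0.048 with DESeq2-type size factors and with DESeq2, -0.028 with only the groups compared), Skil in 5xFAD/IRF8KO against 5xFAD (0.034 with DESeq2-type size factors and with DESeq2, 0.10 with all 33 libraries, 0.0029 with the replicate block), Ski against IRF8KO (-0.035 with DESeq2-type size factors, -0.034 with DESeq2), Tgfb1 and Tgfbr1 in Batf3KO (-0.051 and -0.052 with all 33 libraries), and Nrros between the conditional and germline knockouts (-0.079 with all 33 libraries, -0.19 with the replicate block). The cause was not tested.

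With 1 library left out, called genes ranged from 305 to 1128 (IRF8KO, 3 months), 2266 to 4126 (9 months), 2 to 102 (5xFAD, 0 members each time), 2325 to 4055 (5xFAD/IRF8KO against 5xFAD, 1 to 3 members), 38 to 140 (against IRF8KO), 2 to 189 (interaction), 219 to 596 (Batf3KO, 0 to 1 member), 0 to 952 (conditional, 0 to 1), 2191 to 4053 (ages, 2 to 5) and 471 to 1780 (conditional against germline, 0 to 1). Log2 values that changed sign ranged at 3 months from -0.29 to 0.46 (Tgfbr1) and -0.068 to 0.40 (Tgfbr2); in 5xFAD from -0.052 to 0.14 (Smad2); in 5xFAD/IRF8KO against 5xFAD from -0.60 to 0.19 (Smad2) and -0.27 to 0.21 (Skil); against IRF8KO from -0.35 to 0.52 (Tgfb1), -0.48 to 0.16 (Nrros), -0.31 to 0.79 (Smad3), -0.00036 to 0.39 (Smad4), -0.48 to 0.52 (Ski) and -1.47 to 0.34 (Skil); in the interaction from -0.014 to 1.2 (Smad2); in Batf3KO from -0.038 to 0.10 (Tgfb1), -0.16 to 0.064 (Nrros), -0.066 to 0.12 (Tgfbr1) and -0.075 to 0.21 (Skil); in the conditional knockout from -0.11 to 0.20 (Tgfbr1), -0.33 to 0.061 (Tgfbr2) and -0.0060 to 0.23 (Skil); between ages from -0.12 to 1.33 (Smad7); and between conditional and germline knockouts from -0.11 to 0.43 (Nrros), -0.28 to 0.46 (Tgfbr1), -0.41 to 0.045 (Tgfbr2) and -0.71 to 0.11 (Smad2).

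Deviations from the group mean had low correlations between libraries with the same replicate number (from -0.153 to 0.167). In the IRF8KO experiment at 3 months, WT replicates 2, 3 and 4 matched best with their own number (0.167, 0.154 and 0.0991). Replicate 1 did not (-0.0512), and the other comparisons were mixed. Groups this small cannot settle whether the numbers pair libraries, and the main fits used no block. With the block, 988 genes were called for IRF8KO at 3 months (970 without it), and 4 members in 5xFAD/IRF8KO against 5xFAD (3 without it). The smallest library, WT replicate 3 at 9 months with 605376 counts, limits the precision of low genes such as Smad7.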
